A study of Mus musculus with 7 samples.

Results

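Serpins are proteins of one shared fold, and most of them trap a protease on an exposed bait loop and inactivate it for good. Of the serpin genes, 47 were found among the 5017 genes with values in this series, as those whose probe sets carried exactly 1 gene symbol starting with Serpin, and they held 297 of the 53644 probe sets with 1 symbol. A probe set is a short stretch of a transcript, about an exon, with its own signal. Each serpin gene had 1 to 11 probe sets, with a median of 6.0. They lay on 4 chromosomes, with 13 genes on chromosome 1, 2 on chromosome 11, 20 on chromosome 12 and 12 on chromosome 13. RefSeq lists 69 mouse serpin genes, and the others were not analysed here.

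The study measured RNA of the retinal pigment epithelium (RPE), the pigmented layer that nourishes the photoreceptors, dissected from eyes of mice at postnatal day 5 and hybridised to 7 Affymetrix arrays. The 3 Dicer1-deficient arrays were of genotype Dicer1loxP/loxP;Dct-Cre, in which a Cre recombinase under the promoter of the pigment gene Dct deletes Dicer1, the gene of the enzyme that makes mature microRNAs. That promoter is known to be active in other pigment cells too. The 4 control arrays are labelled only as control RPE, and their genotype is not stated; pups of both groups came from mating Dicer1 flox/+ mice carrying Dct-Cre with flox/flox mice. No label ties an array to an animal. The replicate spread behind each p-value may therefore be technical in part.

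Clade A serpins, clustered on mouse chromosome 12, are mostly secreted and include the relatives of antitrypsin and antichymotrypsin. Clade B serpins, clustered on chromosomes 1 and 13, stay mostly inside cells and guard them against their own granule and lysosomal proteases. Serpinf1 encodes pigment epithelium-derived factor (PEDF), a serpin that inhibits no protease and that the RPE secretes as a neurotrophic factor that restrains blood vessel growth.

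The stretches before the transcription start of the serpins on which the results turn are shown to give their local sequence. They are the 250 bases upstream of the RefSeq start, 5′ to 3′ on the gene's strand, in build GRCm38.p6. Capitals mark matches to CATGTG, one of the E-box sequences that MITF, the pigment cell transcription factor, binds. On the opposite strand a match reads CACATG.
Serpinf1, minus strand, chr11:75422624-75422873: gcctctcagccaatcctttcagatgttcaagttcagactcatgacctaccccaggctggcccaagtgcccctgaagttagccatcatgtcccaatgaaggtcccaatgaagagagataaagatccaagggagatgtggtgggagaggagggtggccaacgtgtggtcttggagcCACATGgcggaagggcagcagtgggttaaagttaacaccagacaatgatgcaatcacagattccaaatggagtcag
Serpinb6b, plus strand, chr13:32965011-32965260: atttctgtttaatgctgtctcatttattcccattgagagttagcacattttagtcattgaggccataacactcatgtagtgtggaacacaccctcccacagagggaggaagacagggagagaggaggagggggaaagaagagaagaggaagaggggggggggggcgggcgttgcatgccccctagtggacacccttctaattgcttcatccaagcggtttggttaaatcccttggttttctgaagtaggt
Serpinb8, plus strand, chr1:107589756-107590005: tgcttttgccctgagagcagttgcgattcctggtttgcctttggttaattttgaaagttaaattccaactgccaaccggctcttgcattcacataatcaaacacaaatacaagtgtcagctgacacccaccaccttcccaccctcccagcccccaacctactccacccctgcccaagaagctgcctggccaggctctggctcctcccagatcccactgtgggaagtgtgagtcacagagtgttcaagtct
Neither the Serpinb6b nor the Serpinb8 window held one. The Serpinf1 match, read as CACATG, began 76 bases before the start. CATGTG on either strand was in 12.3% of the 32851 RefSeq windows of this length and in 7 of 46 windows of the 39 serpin genes that had one. CACGTG, the other E-box searched on both strands, was in 6.02% of all windows and in 0 of the 46. TATAAA on either strand was in 12.4% of all windows and in 13 of the 46. A match describes letters only and says nothing of binding.

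Facts of the arrays that bear on the serpins come first. The median log2 signal was 6.05 in control 4 and 6.22 to 6.26 in the other 6 arrays. On the mean of a gene's probe sets, control 4 read highest of the 7 arrays in 33 of the 47 serpins (70.2%), against 31.7% of all genes. This was so in 27 of the 32 serpins (84.4%) whose brightest probe set had a control mean below the median of all probe sets. Among the 9 with that mean above the upper quartile it was so in 3 (33.3%). All genes were not split by brightness in this way. Results are therefore given with and without control 4 where it matters. The targeted gene Dicer1 had log2 signals of 10.27, 10.65, 10.69 and 10.88 in controls at its brightest probe set. In Dicer1-deficient arrays it read 10.53, 10.71 and 10.47, and the groups overlapped (limma adjusted p = 0.961). Which exons carry the loxP sites is not given, so this checks nothing about the genotype. Of 10 RPE markers fixed for checking the tissue, 6 were measured, and their control means at the brightest probe set ran from 9.90 to 12.66, above the upper quartile of all probe sets (8.13). Markers of neighbouring tissue were bright too, at 8.91 to 13.18 for fibroblasts and sclera and 9.62 to 11.12 for eye muscle. Lens markers ran from 5.06 to 10.14 and photoreceptor markers from 4.86 to 5.82. A bright serpin signal in these samples may therefore come in part from cells other than RPE, which was not tested.

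Most serpins were dim in control RPE. Signals of different probe sets depend on the probes as well as on the RNA, so each was set only against the quartiles of all probe sets, which were 4.63, 6.22 and 8.13 on the log2 scale. At the brightest probe set, 32 of the 47 serpins had a control mean below the median and 6 lay between the median and the upper quartile. The remaining 9 lay above the upper quartile: Serpinf1, Serpine2, Serpinb6a, Serpinb6b, Serpinb6c, Serpina3n, Serpina3h, Serpinb9 and Serpina3k. No detection calls were used here, so a dim serpin was not shown to be above background.

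**Figure D1:**
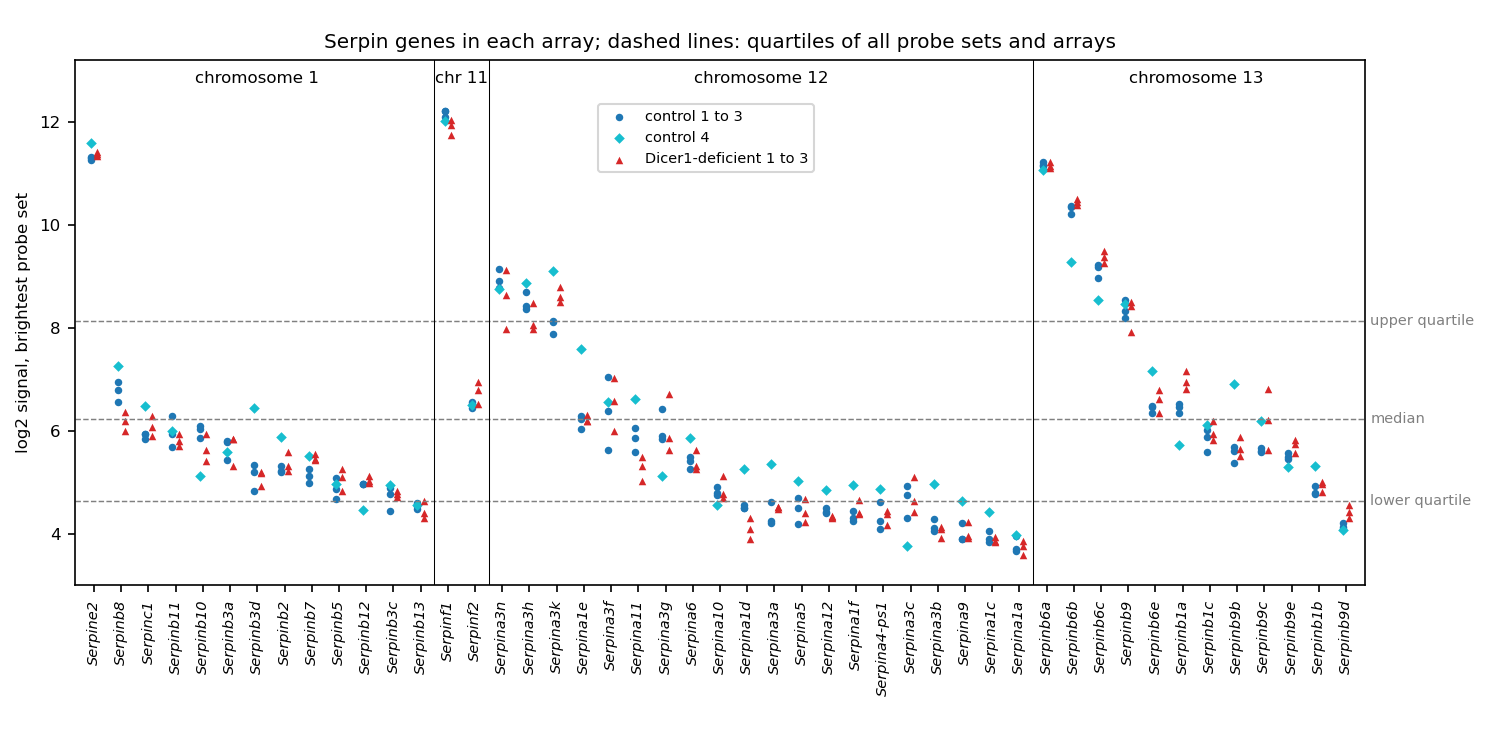
Log2 signal of the 47 serpin genes at their brightest probe set (vertical axis) in each array, grouped by chromosome and ordered by control mean (horizontal axis), with points for controls 1 to 3, control 4 and the Dicer1-deficient arrays. The 9 serpins above the upper quartile (8.13) stand clear of the 32 below the median (6.22), among which control 4 is often the highest point.

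The brightness of these 9 rested on many probe sets in some and on 1 in others. All 11 probe sets of Serpine2 and 7 of the 9 of Serpinf1 had control means above the upper quartile, as did 5 of 9 for Serpinb6a, 3 of 4 for Serpina3n and 2 of 6 for Serpinb6b. In Serpinb6c, Serpina3h and Serpinb9 it was 1 probe set, of 6, 5 and 9, and Serpina3k had only 1 probe set in all. RefSeq lists Serpina3h as a transcribed pseudogene. Some serpins of a cluster are close copies of each other, and 31 probe sets whose annotation names several genes, a serpin among them, were left out. Whether the remaining probe sets hybridise with a paralog was not tested.

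By limma at the brightest probe set, with Benjamini-Hochberg adjustment over all 5017 genes and a threshold of 0.05, 0 of the 47 serpins passed, while 2.33% of all genes did (1.42% upward and 0.917% downward). At an unadjusted p under 0.05 there were 7 serpins (14.9%), against 14.5% of all genes. The other summary, the mean of probe sets, gave 5 serpins (10.6%) at that level, against 16.9%. When a gene was summarised by the mean of all its probe sets, 2 of the 47 passed, Serpinb6b upward and Serpinb8 downward, against 5.86% of all genes (3.03% upward and 2.83% downward). The median log2 fold change of the 47 serpins, Dicer1-deficient minus control, was -0.03 on both summaries, and that of all genes was -0.01. Control and Dicer1-deficient arrays lay apart, without overlap, in 10 serpins (21.3%) at the brightest probe set, against 16.3% of all genes, and in 5 (10.6%) on the mean, against 18.9%. Differences between these shares were not tested.

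**Figure D2:**
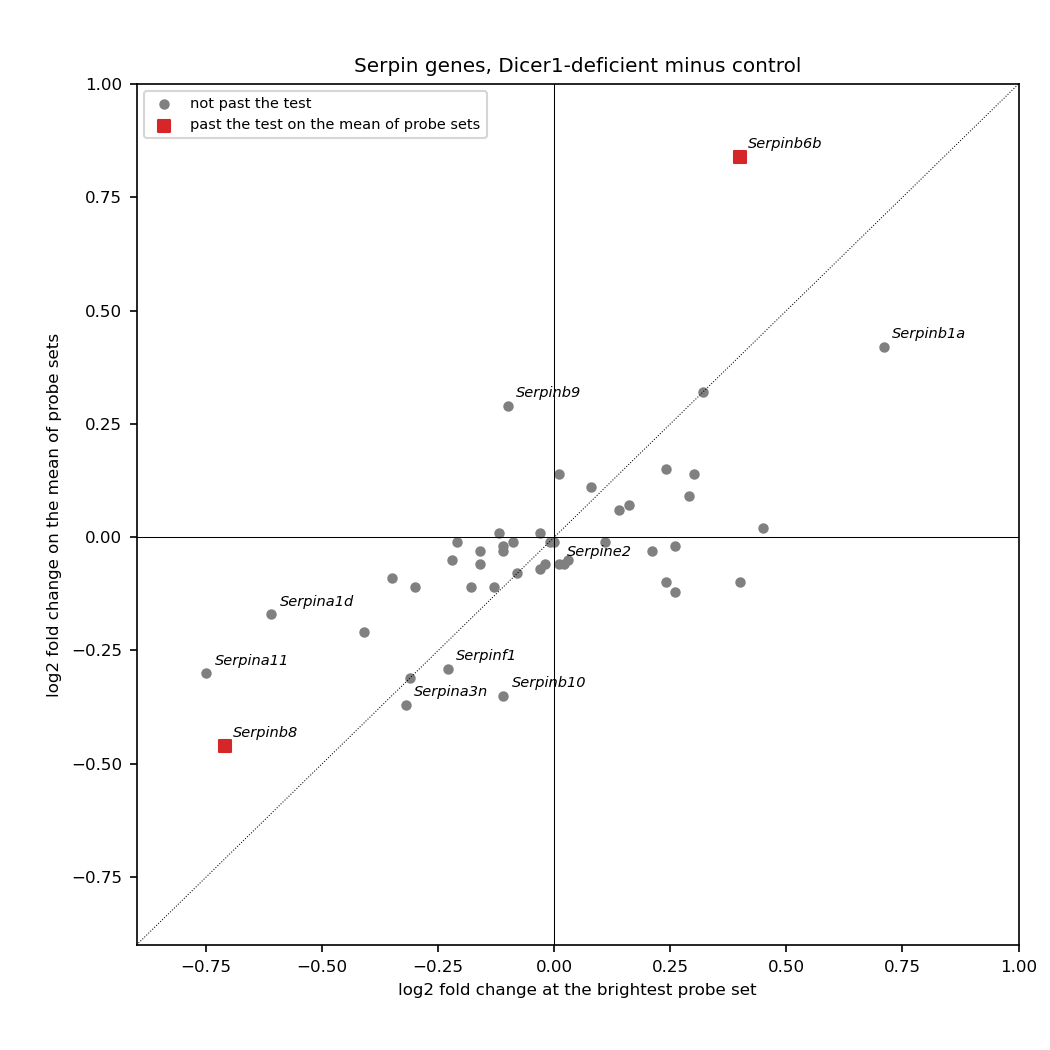
Log2 fold change of each of the 47 serpins at the brightest probe set (horizontal axis) against that on the mean of its probe sets (vertical axis), with squares for genes past the limma test on the mean and a dotted line of equality. Serpinb6b lies at 0.40 and 0.84, Serpinb8 at -0.71 and -0.46, and the other serpins on the mean lie between -0.37 and 0.42.

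PEDF RNA was bright in every array and slightly lower in Dicer1-deficient RPE, without passing the test. At its brightest probe set Serpinf1 read 12.10, 12.20, 12.20 and 12.02 in controls and 11.75, 11.93 and 12.03 in Dicer1-deficient arrays. Dicer1-deficient array 1 was the lowest and array 3 lay inside the control range, just above control 4. The log2 fold change was -0.23 (95% interval -0.48 to 0.02; limma adjusted p = 0.399). The mean of its 9 probe sets was 9.75, 9.86, 9.66 and 9.59 in controls and 9.21, 9.45 and 9.61 in Dicer1-deficient arrays, again with array 3 inside the control range. That gave a log2 fold change of -0.29 (SE 0.11, 95% interval -0.55 to -0.04, limma adjusted p = 0.203). Those intervals hold a fall by up to 0.55 on the log2 scale and are not adjusted for the number of genes.

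Probe by probe, the lower reading of Serpinf1 was repeated along the gene. Of its 9 probe sets 8 were lower in Dicer1-deficient arrays, and in 7 the groups did not overlap, where 14.0% of all single probe sets had no overlap. These probe sets read the same RNA on the same arrays and are not replicates. The 7 bright ones had log2 fold changes from -0.64 to -0.23. The largest, probe set 10388432, read 9.39, 9.22, 9.02 and 9.02 in controls and 8.23, 8.58 and 8.75 in Dicer1-deficient arrays, so that no array of the groups overlapped. None of the 9 passed limma over all probe sets, and the adjusted p of that probe set was 0.170. Without Dicer1-deficient array 1 the fold change on the mean was -0.19, and with array weights, which lower the part of discordant arrays, it was -0.31 and passed (limma adjusted p = 0.0441), a setting under which 19.6% of all genes passed.

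Some markers of the RPE and of its neighbouring tissue fell in these arrays. On the mean of probe sets 3 of the 6 measured RPE markers fell, Kcnj13, Rdh5 and Rdh10, where 2.83% of all genes did, and at the brightest probe set 1 of 6 fell, Kcnj13, where 0.917% did. On the former summary the mean of the list was 9.90 to 10.20 over control arrays and 9.47 to 9.73 over Dicer1-deficient arrays. Of 9 fibroblast and scleral markers, whose cells can also make PEDF, 2 fell on the mean of probe sets, Omd and Fmod, and 0 at the brightest probe set. On the mean of probe sets that list's mean was 9.91 to 10.03 over controls and 9.41 to 9.74 over Dicer1-deficient arrays. Their part in the Serpinf1 values was not tested. In dissected tissue fewer cells of a type and less RNA per cell cannot be told apart.

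Serpinf2, the gene of the plasmin inhibitor alpha-2-antiplasmin and the neighbour of Serpinf1 on chromosome 11, was near the median of all probe sets. It had control and Dicer1-deficient means of 6.50 ± 0.05 (SD, n = 4) and 6.75 ± 0.22 (SD, n = 3), a log2 difference of 0.24 that did not pass (limma adjusted p = 0.422). Over the mean of its 10 probe sets the value was -0.10.

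Serpine2 stayed nearly level. It encodes protease nexin, a secreted inhibitor of thrombin and plasminogen activators. At the brightest probe set it read 11.26, 11.29, 11.32 and 11.59 in controls and 11.33, 11.38 and 11.41 in Dicer1-deficient arrays, and the groups overlapped. Its log2 fold change was 0.01 (95% interval -0.25 to 0.26; limma adjusted p = 0.988), and over the mean of its 11 probe sets it was -0.06 (95% interval -0.24 to 0.12), so that a shift beyond 0.26 in either direction lay outside both intervals. Its fold changes over single probe sets ran from -0.35 to 0.21, 6 of 11 being negative.

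**Figure D3:**
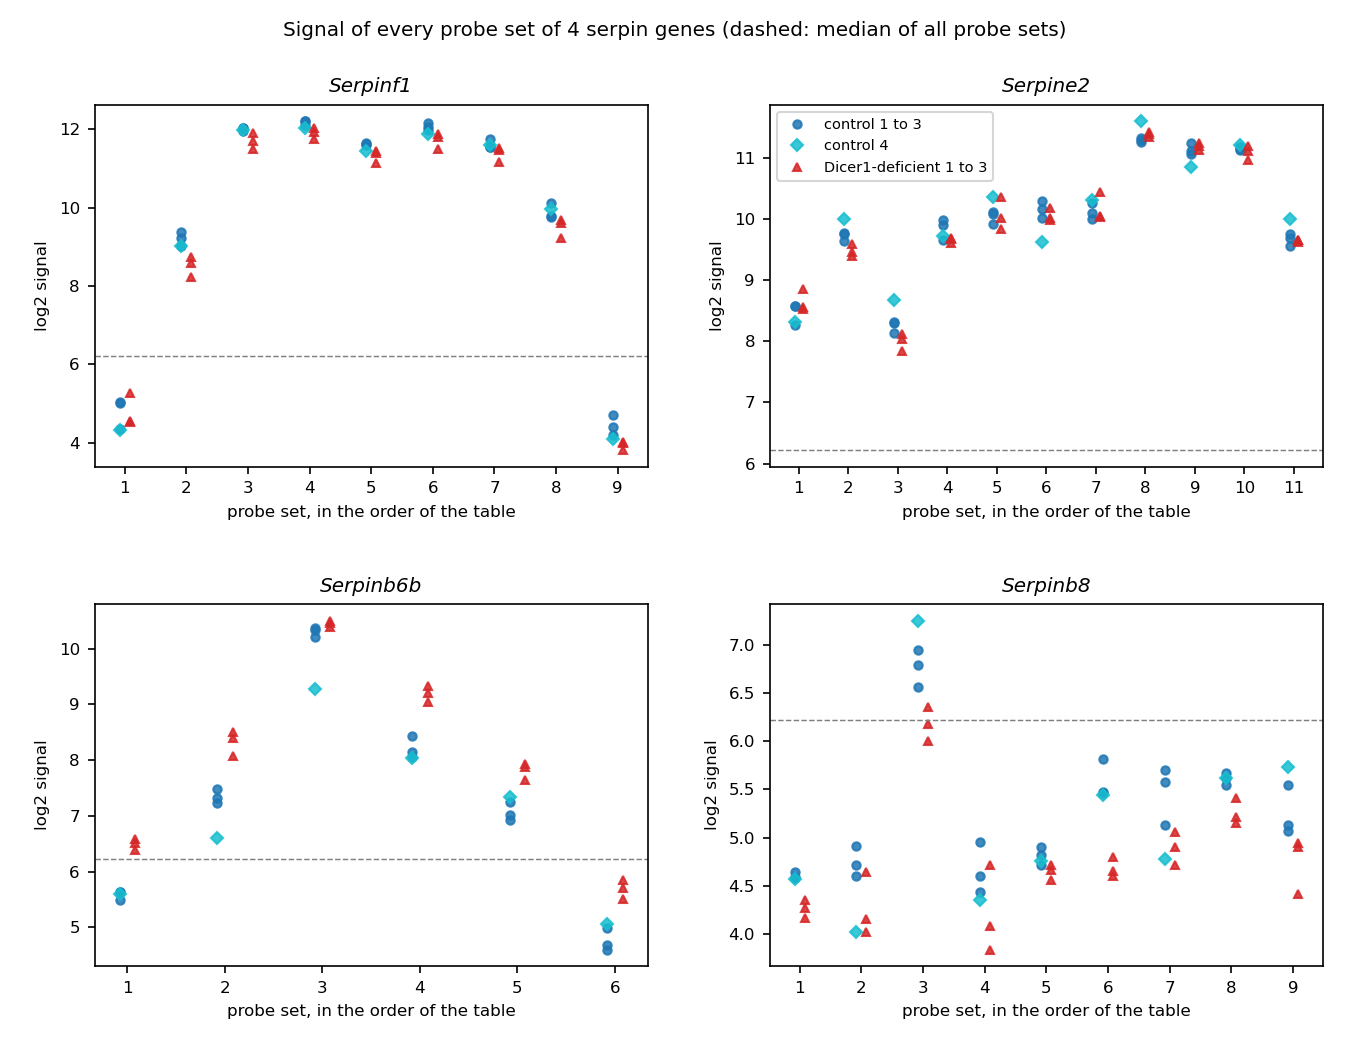
Log2 signal (vertical axis) of every probe set of Serpinf1, Serpine2, Serpinb6b and Serpinb8 in table order (horizontal axis), with points for single arrays. Dicer1-deficient arrays lie below controls in 8 of 9 probe sets of Serpinf1 by group mean and in 9 of 9 of Serpinb8, above them in 6 of 6 of Serpinb6b, and on both sides in Serpine2.

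Serpinb6b was the serpin that rose. It is a clade B gene of the chromosome 13 cluster, a close copy of Serpinb6a, whose product inhibits cathepsin G and related granule proteases. The mean of its 6 probe sets was 7.23, 7.24, 7.17 and 6.98 in controls and 8.02, 7.91 and 8.05 in Dicer1-deficient arrays. Every Dicer1-deficient array lay above every control. The log2 fold change was 0.84 (SE 0.09, 95% interval 0.63 to 1.05), a 1.79-fold rise (limma adjusted p = 7.96e-04), and without control 4 it was 0.78 (limma adjusted p = 1.82e-04).

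At its brightest probe set the same gene did not pass. Probe set 10404425 read 10.34, 10.21, 10.36 and 9.28 in controls and 10.39, 10.45 and 10.50 in Dicer1-deficient arrays. The groups did not overlap, but 3 of the controls lay just below the Dicer1-deficient arrays and control 4 far below. Its log2 fold change of 0.40 (limma adjusted p = 0.580) became 0.15 without control 4 (limma adjusted p = 0.337). The other 5 probe sets, dimmer in controls, had log2 fold changes of 0.90, 1.17, 1.02, 0.69 and 0.85, and their arrays did not overlap either. Over all single probe sets, of which 1.06% passed limma, 2 of the 6 passed, with adjusted p of 0.0157 and 0.0240.

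The near copies of Serpinb6b did not pass the test on either summary. Serpinb6a read 11.22, 11.16, 11.15 and 11.06 in controls and 11.15, 11.21 and 11.11 in Dicer1-deficient arrays where it was brightest, with overlapping groups. Its log2 fold change was 0.01 (95% interval -0.20 to 0.22), and on the mean of its 9 probe sets it was 0.14 (95% interval -0.09 to 0.38; limma adjusted p = 0.614). Serpinb6c read 9.21, 8.96, 9.17 and 8.53 in controls and 9.37, 9.25 and 9.48 in Dicer1-deficient arrays at 1 bright probe set, with no overlap. That log2 fold change of 0.40 did not pass (limma adjusted p = 0.356) and became 0.25 without control 4 (limma adjusted p = 0.210), and it was -0.10 on the mean of its 6 probe sets, 5 of them dim. The difference between these paralogs was not itself tested.

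Clade B serpins are also made by white blood cells, and markers of those cells are given beside Serpinb6b. Of 7 macrophage and leukocyte markers 6 were measured and 0 passed limma on either summary. The list's mean on the mean of probe sets was 5.85 to 6.12 over control arrays and 5.82 to 5.96 over Dicer1-deficient arrays. Single members differed, with log2 fold changes at the brightest probe set from -0.52 to 0.53. Groups did not overlap there for Ccl4, a chemokine, at 0.53, or for Cd68, a macrophage lysosomal protein, at -0.46. Ptprc, the common leukocyte antigen, had 0.03. The part of such cells in the Serpinb6b values was not tested.

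Serpinb9, which protects cells against granzyme B, differed little. It read 8.54, 8.18, 8.33 and 8.45 in controls and 8.49, 7.92 and 8.43 in Dicer1-deficient arrays at the brightest probe set. The groups overlapped, with a log2 fold change of -0.10 and a limma adjusted p = 0.903. Of its 9 probe sets 8 were higher in Dicer1-deficient arrays, and on their mean the value turned to 0.29 (95% interval -0.03 to 0.61, limma adjusted p = 0.344).

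Serpinb1a, an inhibitor of neutrophil elastase, had the highest fold change of the 47 at the brightest probe set. It read 6.46, 6.35, 6.51 and 5.72 in controls, and 7.15, 6.81 and 6.94 in Dicer1-deficient RPE, with no overlap and with control 4 lowest. The log2 fold change of 0.71 did not pass (limma adjusted p = 0.148), nor did the 0.42 that its 7 probe sets gave as a mean (limma adjusted p = 0.0582). Without control 2 the latter passed (0.51, limma adjusted p = 0.0288), as it did when arrays were quantile normalized again (0.41, limma adjusted p = 0.0391). Without control 4 both passed, at 0.53 (limma adjusted p = 0.0406), where 5.18% of all genes passed, and 0.37 (limma adjusted p = 0.0343), where 17.0% did. The lowest value on chromosome 13 was that of Serpinb9b, -0.22, and its sign turned without control 4 (0.12).

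Serpinb8 was the serpin that fell. It is a clade B gene of the chromosome 1 cluster whose product can inhibit furin and similar proteases. The mean of its 9 probe sets was 5.37, 5.28, 5.19 and 5.17 in controls and 4.77, 4.80 and 4.82 in Dicer1-deficient arrays, with a clear gap between the groups. This made a log2 fold change of -0.46 (SE 0.08, 95% interval -0.64 to -0.27; limma adjusted p = 0.0122). It was negative in all 9 probe sets, 6 of them with no overlap, and 1, probe set 10349180, passed limma on its own (-0.86, adjusted p = 0.0381).

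The signal of Serpinb8 was low, which limits the size that can be read from it. Only its brightest probe set had a control mean above the median of all probe sets. That probe set read 6.95, 6.79, 6.56 and 7.25 in controls and 6.18, 6.36 and 6.00 in arrays of Dicer1-deficient RPE, without overlap. Its log2 fold change was -0.71 (95% interval -1.11 to -0.30) and did not pass (limma adjusted p = 0.0938). The call on the mean was lost without control 2 and without any 1 of the Dicer1-deficient arrays, with values of -0.47 to -0.44 and limma adjusted p from 0.0514 to 0.0691. Markers of melanocytes and Schwann cells moved in the same direction, with 2 of 3 measured, Pax3 and Erbb3, fallen on the mean of probe sets and 0 of 3 at the brightest probe set. On the former summary that list's mean was 6.55 to 6.87 over controls and 6.14 to 6.26 over Dicer1-deficient arrays, and its part in the Serpinb8 values was not tested.

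The other chromosome 1 serpins were mostly dim. They include Serpinb5 (maspin) and the squamous cell serpins of the Serpinb3 group, genes of surface epithelia, as well as Serpinc1, the gene of antithrombin of blood plasma. On the chromosome the log2 fold changes at the brightest probe set ran from -0.71 for Serpinb8 to 0.26 for Serpinb7, a serpin of skin and kidney. Serpinb10 had -0.11 at its brightest probe set and -0.35 on the mean of its 7 probe sets, all 7 lower and the groups without overlap, and did not pass (limma adjusted p = 0.0610). It passed on the mean without control 4 (-0.40, limma adjusted p = 0.00516), after median centring (-0.38, limma adjusted p = 0.0205) and after quantile normalization again (-0.35, limma adjusted p = 0.0297). Without control 4, 17.0% of all genes passed on the mean. Of the 5017 genes 367 passed after median centring and 426 after quantile normalization again, against 294 in the main fit. Surface epithelium markers gave 1 call of 6 at the brightest probe set, Krt10 downward, and 0 of 6 on the mean.

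On chromosome 12 the bright ones among the 20 clade A serpins were 3 of the antichymotrypsin group, Serpina3n, Serpina3h and Serpina3k. Of the other Serpina3 genes measured, Serpina3a, Serpina3b, Serpina3c and Serpina3g had control means of 4.35 to 5.82, dimmer than the median probe set, and Serpina3f (6.40) was just above it. Serpina3n, a secreted inhibitor that many tissues raise on injury, read 9.14, 8.77, 8.91 and 8.75 in controls and 7.97, 8.63 and 9.12 in Dicer1-deficient arrays. The Dicer1-deficient arrays were spread, from well below the controls in array 1 to their top in array 3. The log2 fold change was -0.32 (95% interval -0.90 to 0.26; limma adjusted p = 0.698), and it was -0.37 on the mean of 4 probe sets, with control 4 (7.70) also low. Single arrays set these values: without Dicer1-deficient array 1 they were -0.02 and -0.08, without array 3 they were -0.59 and -0.73, and the mean gave -0.24 without control 1 and -0.59 without control 4.

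Serpina3k, a kallikrein-binding serpin, was measured by 1 probe set and depended on control 4. It read 8.11, 7.88, 8.12 and 9.10 in controls, and 8.50, 8.59 and 8.79 in Dicer1-deficient RPE. All 3 Dicer1-deficient arrays lay above controls 1 to 3 and below control 4. With all arrays its log2 fold change of 0.32 did not pass (limma adjusted p = 0.729), and the 0.59 without control 4 did (limma adjusted p = 0.0323). Without control 4, 5.18% of all genes passed at the brightest probe set and 17.0% on the mean.

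The pseudogene Serpina3h read 8.43, 8.36, 8.69 and 8.87 in controls and 7.98, 8.06 and 8.47 in Dicer1-deficient arrays, with overlap between the groups. Its log2 fold change of -0.41 did not pass (limma adjusted p = 0.326), nor did the -0.21 that its 5 probe sets gave as a mean (limma adjusted p = 0.697). The latter was -0.04 without control 4 and -0.10 without Dicer1-deficient array 1. The other 17 genes on chromosome 12 had control means of 6.53 or less at the brightest probe set. Serpina11, a little studied member, had the lowest value of the 47 at -0.75 (limma adjusted p = 0.200), from 6.03 ± 0.44 (SD, n = 4) to 5.28 ± 0.23 (SD, n = 3), with no overlap and with control 4 highest. None of the relatives of antitrypsin with probe sets of their own (Serpina1a, Serpina1c, Serpina1d, Serpina1e and Serpina1f) passed, and their log2 fold changes at the brightest probe set ran from -0.61 to -0.01. Control 4 was the highest array in each of them, so these negative signs rest in part on it. Serpina1e, for one, read 6.29, 6.04, 6.22 and 7.58 in controls and 6.19, 6.30 and 6.18 in Dicer1-deficient arrays.

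Genes that work with serpins were taken from lists fixed by function. These held 39 proteases that serpins inhibit, 23 receptors and cofactors, 12 PEDF receptors and partners, and 37 inhibitors of other families. Values were present for 6, 8, 2 and 10 of them, 26 genes in all, so most of each list was not measured. At the brightest probe set 2 of the 26 fell and 0 rose, where 0.917% of all genes fell and 1.42% rose. On the mean of probe sets 5 fell and 0 rose, where 2.83% of all genes fell and 3.03% rose. The median log2 fold change of the 26 was -0.08 at the brightest probe set and -0.06 on the mean, beside -0.01 for all genes on both.

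Of 6 measured target proteases, Gzmm, the gene of the lymphocyte protease granzyme M, fell at the brightest probe set. It read 5.88, 6.48, 6.28 and 6.06 in controls and 5.34, 5.21 and 5.49 in Dicer1-deficient arrays, without overlap (log2 fold change -0.83, limma adjusted p = 0.0448). Most of these signals were dimmer than the median probe set. The mean of the 7 Gzmm probe sets gave -0.31 (limma adjusted p = 0.117), and the call at the brightest probe set was lost with a variance trend and without any 1 of controls 2 and 3 and Dicer1-deficient arrays 1 to 3. Ctsl, the gene of the lysosomal protease cathepsin L, was bright and had -0.17 (limma adjusted p = 0.454).

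Of 8 measured receptors and cofactors 2 fell on the mean of probe sets. Lrp1, the endocytic receptor that clears serpin and protease complexes, read 10.51, 10.56, 10.56 and 10.41 in controls and 10.09, 10.09 and 10.23 in Dicer1-deficient arrays. Its 89 probe sets were lower in 88 cases, giving a log2 fold change of -0.37 at a limma adjusted p = 0.0309. They read the same RNA on the same arrays and are not replicates. By limma over all single probe sets, of which 1.06% passed, 0 of the 89 did. Gpc1, the gene of the heparan sulfate proteoglycan glypican-1, had -0.49 (limma adjusted p = 0.0167), with all 10 probe sets lower and 1 of them past limma on its own. Neither passed at the brightest probe set, with -0.22 for Lrp1 and -0.45 for Gpc1. The call of Lrp1 on the mean was lost when any 1 of the arrays other than control 4 was left out, and that of Gpc1 in the same cases except control 1.

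Of the PEDF list 2 members were measured. Plxdc1, which encodes a cell surface receptor of PEDF, had a log2 fold change of 0.31 on the mean of its 15 probe sets, with no overlap between the groups (limma adjusted p = 0.0774). It passed without control 4 or with array weights, settings under which 17.0% and 19.6% of all genes passed. Fasl, the gene of the death ligand, had -0.05 (limma adjusted p = 0.935).

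Among 10 measured inhibitors of other families 3 fell on the mean of probe sets, 2 of them by large amounts. Spock1, which encodes testican-1, a matrix proteoglycan with protease inhibitor domains, read 5.93, 6.40, 6.54 and 6.57 in controls and 4.80, 4.69 and 4.81 in Dicer1-deficient arrays. The groups lay far apart, at a log2 fold change of -1.60 (SE 0.15, limma adjusted p = 2.69e-04). Its brightest probe set over the 7 arrays showed none of this, at 7.50, 7.68, 7.91 and 8.01 against 7.59, 7.69 and 7.76 (log2 fold change -0.10). In controls alone another probe set, 10409627, was brighter, with a mean of 8.73 against 7.77. Single probe sets of Spock1 ranged from -4.40 to -0.04, and 6 of 12 passed limma over all probe sets. The one at -4.40, probe set 10409627, read 7.86, 8.78, 8.96 and 9.30 in controls and 4.72, 3.97 and 4.29 in Dicer1-deficient arrays. The latter signals lie around the lower quartile (4.63).

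Wfikkn2, whose product has several protease inhibitor domains, fell on both summaries, by 1.28 on the log2 scale at the brightest probe set and by 1.39 on the mean (limma adjusted p = 0.0028 and 3.75e-04). Timp2, a secreted inhibitor of matrix metalloproteinases, read 10.66, 10.65, 10.63 and 10.69 in controls and 10.28, 10.31 and 10.41 in Dicer1-deficient arrays on the mean of probe sets. No array of one group reached the other. The change, -0.32, passed (limma adjusted p = 0.0382), and the call was lost after median centring and when any 1 array other than control 4 was left out. Timp3, made by the RPE and a component of Bruch's membrane, did not pass (-0.14 on the mean, limma adjusted p = 0.454).

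**Figure D4:**
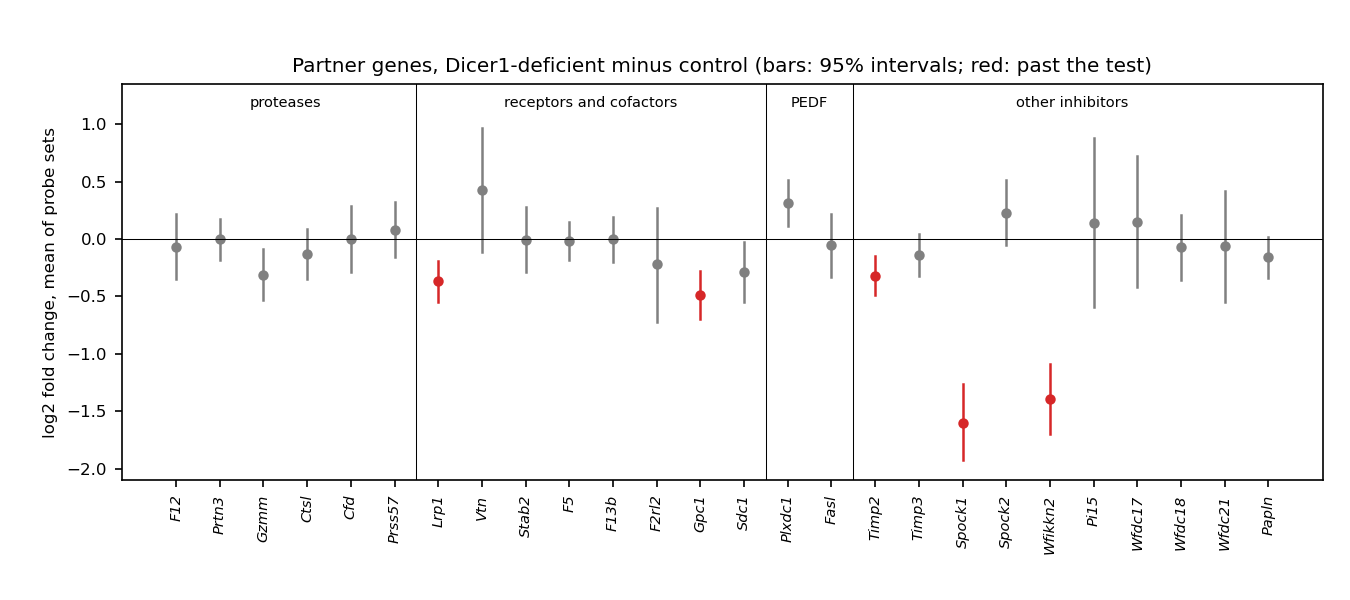
Log2 fold change on the mean of probe sets (vertical axis), Dicer1-deficient minus control, of the 26 measured partner genes (horizontal axis) in their 4 lists, with 95% intervals as bars and genes past the limma test in red. The 5 red genes, Lrp1, Gpc1, Timp2, Spock1 and Wfikkn2, all lie below 0, from -1.60 to -0.32.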

How the data were processed

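The authors deposited log2 signals of 65535 probe sets for 7 arrays of total RNA that ran from 2.71 to 13.50, a range only a log scale gives, and the submitters' processing notes name RMA and Partek 6.6. Neither the genome build nor the probe alignment is stated in these sources, and no detection calls were used. RMA commonly includes quantile normalization, which hides a change in total RNA; the array medians here were still unequal.

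The platform annotation gave 53644 probe sets with 1 gene symbol, 877 with several and 11014 with none. Symbols were updated with RefSeq, giving 5017 genes. Each gene was summarised by its brightest probe set (highest mean over the 7 arrays) and by the mean of its probe sets. Each summary was fitted over all genes at once by limma's moderated test (two-sided), with Benjamini-Hochberg adjustment and a threshold of 0.05, and the procedure was tested on simulated data. Errors are SDs over arrays. Replicate numbers are names only.

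Serpins, lists and tests were chosen with earlier results of these data known. Values are given array by array for Serpinf1, serpins past the test on either summary and serpins with a control mean above the upper quartile; others appear as extremes of a chromosome or in ranges. Partner genes named are those past the test, the measured PEDF partners, and Ctsl and Timp3. Some genes that did not pass but had a smaller p than Ctsl or Timp3 are not described. Serpinb10, the leukocyte markers named, the mean of Serpinb1a and the single probe sets shown were chosen after values were seen. Alternatives were quantile normalization again, median centring, a filter on dim genes, a variance trend, robust moderation, array weights, the median of probe sets and leaving out each array. Single probe sets and the mean of bright probe sets were added after seeing the data. Work used R 4.3.3, limma 3.58.1, Python 3.11.15, pandas 2.3.3 and matplotlib 3.10.9.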

Additional observations from a re-analysis of the deposited data

Results flagged for a closer look

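In 3 of 20 sets of control values, for 10 serpins on 2 summaries, control 4 lay further from the other controls than Dixon's 95% limit allows, where chance flags about 1 set in 20. Serpinb6b at its brightest probe set read 9.28 in control 4 and 10.21 to 10.36 in the other controls. Serpinb9 on the mean of probe sets read 6.55 there and 6.98 to 7.05 in the others. Serpinb6c on the mean of probe sets read 5.37, above the 5.25 to 5.26 of the others.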

How the results depend on the processing

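No paired analysis was possible because replicate numbers only name the arrays. Array weights raised the counts past limma's threshold: serpins from 0 to 3 at the brightest probe set and from 2 to 8 on the mean of probe sets, partner genes on the mean from 5 to 8, and all genes from 117 to 385 and from 294 to 981. Taking the median of probe sets in place of the brightest gave 1 serpin and 176 genes, and any single probe set gave 2 serpins and 185 genes. On the mean, quantile normalization again gave 4 serpins, and a filter on dim genes gave 1. A variance trend left 1 partner gene at the brightest probe set. Leaving out each array in turn gave 0 to 2 serpins, 33 to 260 genes and 1 to 4 partner genes at the brightest probe set, and 1 to 6 serpins, 121 to 853 genes and 2 to 8 partner genes on the mean. The highest counts came without control 4, and the lowest counts of all genes without Dicer1-deficient array 1. The cause was not tested.

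Some small log2 fold changes turned sign. At the brightest probe set Serpinb6a became -0.02 with median centring and -0.01 with array weights, and ran from -0.02 to 0.03 when arrays were left out. Serpine2 became -0.02 with median centring and ran from -0.03 to 0.08. Serpinb9 became 0.45 with the median of probe sets and ran from -0.20 to 0.08. Serpinb9b became 0.02 with array weights and 0.01 with the median of probe sets, and ran from -0.40 to 0.12. With the median of probe sets Serpinb6c became -0.22, Serpinb7 -0.01 and Serpinf2 -0.25. On the mean, Serpinb6c became 0.40 when only probe sets above the median were used. The rise of Serpinb6b on the mean passed in every alternative run, from 0.78 to 0.88. Signal over background limits the 32 dim serpins, for which no detection calls were used.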

Other observations

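Of the probe sets with an older symbol, 13 now belong to serpins by RefSeq and were outside the rule that chose the genes above. Serpinb6d, of the chromosome 13 cluster, had 8 of them and at the brightest of them read 5.85 to 6.34 over controls and 5.80 to 6.17 over Dicer1-deficient arrays. That gene's log2 fold change was -0.04. Serpina16, with 4, had -0.01, and Serpina3i, with 1, had 0.06. None of these 3 genes passed limma on either summary, the lowest adjusted p being 0.885 (Serpina3i), and all of their signals lay below or near the median of all probe sets (6.22).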
